A study of Mus musculus with 2 samples.

Results

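The genes described here are 10 regulators of the G1 phase of the cell cycle, chosen by name from the 49492 genes of the count table. They are the D-type cyclins *Ccnd1*, *Ccnd2* and *Ccnd3*, the E-type cyclin *Ccne1*, the G1 kinases *Cdk4* and *Cdk6*, and the CDK inhibitors *Cdkn1a*, *Cdkn1b*, *Cdkn2a* and *Cdkn2b*. Their RNA was measured in mammary basal cells of wild-type adult female mice, 8 to 10 weeks old, that had received either clodronate liposomes (CL basal) or control treatment (Ctrl basal), both labelled day 7. Clodronate liposomes are taken up by macrophages and kill them, and they were injected intraperitoneally every other day. The sample label of Ctrl basal gives no treatment, while the series text names saline. Basal cells, which include the contractile myoepithelium around the luminal cells, were sorted as lineage-negative, CD24-positive cells with high CD29, where lineage negative means without CD45, CD31 and TER119. Each group was 1 library, and the number of mice behind a library is not given in the sources used here, so the differences could not be set against replicates and no p-value is given.

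D-type cyclins bind CDK4 or CDK6 in response to growth signals, and the active kinases phosphorylate the retinoblastoma protein, which then releases E2F transcription factors. E2F factors switch on cyclin E and the genes of DNA synthesis, and cyclin E with CDK2 completes the step into S phase. The inhibitors hold this step back: the INK4 proteins of *Cdkn2a* and *Cdkn2b* bind CDK4 and CDK6 directly, while the Cip/Kip proteins p21 (*Cdkn1a*) and p27 (*Cdkn1b*) act mainly on cyclin-CDK2 complexes. In the mammary gland, cyclin D1 is known for its part in the growth of the lobules during pregnancy.

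All 10 genes are annotated as protein-coding and lie on the GRCm38 build at the same chromosome and strand in GENCODE release M21, 8 of them with the same start and end. *Cdkn2a* (chromosome 4, 89274471 to 89294653) and *Cdkn2b* (chromosome 4, 89306289 to 89311032) are neighbours on the minus strand, 11.6 kb apart. RefSeq promoters (GRCm38.p6) were matched for 8 of the 10 genes, with 11 start sites between them, and *Ccnd1* and *Ccnd2* had no entry. Over the 250 bases before each start, the GC content of the 11 promoters ran from 53.6 to 78.4%, with a median of 64.4% against 52.4% over all 32851 promoters. All 11 were above that median. They held a median of 19 CpG dinucleotides, against 6 over all promoters.

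The promoters of the genes at the ends of the range of levels reported below are printed here: *Cdkn1a* (the downstream of its 2 starts), the most abundant of the 10 per length, and *Cdkn2b* and *Cdkn2a*, the least abundant. *Cdkn2a* has 2 starts, an upstream start for the transcript of the p19Arf protein and a downstream start for that of p16. The promoter of *Cdk4* is shown for its repeated E-boxes. Each sequence runs 5′ to 3′ on the gene's own strand, and capitals mark matches to 4 motifs on either strand. The E2F motif was taken as TTTCGCGC, TTTGGCGC or TTTCCCGC. For the GC box, where Sp1 binds, the letters searched were GGGCGG. For the TATA box, which places the start of transcription, they were TATAAA. The E-box was searched with the letters CACGTG, and no match of one motif was removed for overlap with another.
Cdkn1a, chr17:29093519-29093768, plus strand: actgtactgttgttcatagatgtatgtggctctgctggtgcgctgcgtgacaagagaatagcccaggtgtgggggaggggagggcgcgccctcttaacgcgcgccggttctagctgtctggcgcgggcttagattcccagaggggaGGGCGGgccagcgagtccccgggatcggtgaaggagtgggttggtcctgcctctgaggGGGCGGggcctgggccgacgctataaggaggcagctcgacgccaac
Cdkn2b, chr4:89311033-89311282, minus strand: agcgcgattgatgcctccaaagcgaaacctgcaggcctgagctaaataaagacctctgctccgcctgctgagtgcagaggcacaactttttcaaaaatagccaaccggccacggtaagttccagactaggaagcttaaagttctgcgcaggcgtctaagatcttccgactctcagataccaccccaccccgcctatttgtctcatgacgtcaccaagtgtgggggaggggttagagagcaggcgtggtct
Cdkn2a upstream start, chr4:89294620-89294869, minus strand: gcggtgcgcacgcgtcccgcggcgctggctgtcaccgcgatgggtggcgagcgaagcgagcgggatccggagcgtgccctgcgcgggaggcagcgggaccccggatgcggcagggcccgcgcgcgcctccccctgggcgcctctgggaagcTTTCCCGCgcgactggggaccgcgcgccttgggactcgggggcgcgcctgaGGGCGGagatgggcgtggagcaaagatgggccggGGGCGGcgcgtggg
Cdkn2a downstream start, chr4:89282193-89282442, minus strand: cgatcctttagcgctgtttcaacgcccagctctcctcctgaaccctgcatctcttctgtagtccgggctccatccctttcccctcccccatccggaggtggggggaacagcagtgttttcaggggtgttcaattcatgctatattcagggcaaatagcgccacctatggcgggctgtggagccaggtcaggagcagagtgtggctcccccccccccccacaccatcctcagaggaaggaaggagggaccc
Cdk4, chr10:127063285-127063534, plus strand: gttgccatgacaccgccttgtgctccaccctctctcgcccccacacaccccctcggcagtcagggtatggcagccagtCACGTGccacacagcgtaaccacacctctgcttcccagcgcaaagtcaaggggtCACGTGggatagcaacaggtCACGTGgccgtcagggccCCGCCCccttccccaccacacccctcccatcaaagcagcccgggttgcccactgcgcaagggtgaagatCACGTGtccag

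A GC box was found in 7 of the 11 promoters, against 32.7% of all promoters. It was absent from the windows of *Cdk6*, *Cdkn2b*, the downstream start of *Cdkn2a* and the upstream start of *Cdkn1a*. Of the 11, only the upstream start of *Cdkn2a* held an E2F motif, which 1.53% of all promoters held. A TATA box was found in 1 of the 11, that of *Cdk6*, against 12.4% of all promoters. E-boxes, the sites that Myc and related factors bind, were found before *Cdk4* and *Cdk6* alone, in 2 of 11 promoters against 6.02% of all. *Cdk4* held 4 of them, and 7 of the 32851 promoters held as many. The windows were matched by letters alone and no binding was measured.

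Sequencing depth was similar, with 38962512 counts over annotated exons in CL basal against 37846008 in Ctrl basal. Levels are given as counts-per-million values (CPM) and, to compare genes, as CPM per kilobase of exonic length, both on library sizes scaled by the trimmed mean of M-values (TMM). Intervals of 95% cover counting error only. Of the values from 1 to 20 in CL basal, 68.7% were even numbers, as if both mates of a read pair were counted, so intervals from halved counts are also given where they reach 0 for a difference or overlap for neighbouring levels. The basal and myoepithelial marker list was abundant in both libraries, with 20380 CPM in CL basal against 19683 in Ctrl basal over 15 genes, all detected. Most of its 783603 and 754857 counts came from *Myh11* (290054 and 285095) and *Krt14* (232845 and 210758). *Krt5* had 40295 and 47049, fewer than the luminal *Krt8* given below. Luminal markers were lower in CL basal, with 2700 CPM against 4894 over 18 genes. Of these, 15 were at least 1.5-fold lower and 1, *Gata3*, at least 1.5-fold higher. The background shares among the 17356 genes tested were 11.7% lower and 6.33% higher. All 18 were detected in both libraries, *Krt8* with 53150 counts in CL basal against 86539 in Ctrl basal. Fibroblast markers had 212 and 261 CPM, endothelial markers 323 and 396, adipocyte markers 92.1 and 125, and macrophage markers 156 and 151 CPM, in CL basal and Ctrl basal respectively. Of the adipocyte marker counts, *Fabp4* alone held 3465 of 3543 in CL basal and 4648 of 4777 in Ctrl basal. Of the 15 macrophage markers, 10 had at least 20 counts, and of these 4 were higher and 6 lower in CL basal, with a median of -0.15. The 1 at least 1.5-fold higher was *Mpeg1* (88 and 28 counts), and the 2 at least 1.5-fold lower were *Mrc1* (86 and 168) and *C1qc* (6 and 16). The interval of *C1qc* holds 0 (-3.06 to 0.01). At 1 and 2 of 10, these are near the 6.33% higher and 11.7% lower of all genes with at least 20 counts. They are no result about the list. *Lyve1* alone held 4891 of the 5987 macrophage marker counts in CL basal and 4701 of 5803 in Ctrl basal, so the sums above are mostly this gene. *Adgre1*, which encodes F4/80, stood at 10 and 7, and *Fcgr1* at 4 and 0. The 10 lymphoid markers together held 769 and 793 counts. The markers named here were chosen after their values were seen. The part of these cells in the values of the G1 regulators was not tested. In such bulk samples, fewer cells of a type and less RNA per cell cannot be told apart.

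The order of the levels was the same in both libraries. *Cdkn1a* was highest, at 43.0 CPM per kilobase in CL basal (95% Poisson interval 41.6 to 44.4) and 39.0 in Ctrl basal (37.7 to 40.3). *Cdk4* followed with 6.77 and 7.99, *Ccnd1* with 6.63 and 6.71, and *Cdkn1b* with 5.16 and 5.33. Below these came *Ccne1* (4.33 and 3.68), *Ccnd2* (3.52 and 2.34) and *Ccnd3* (1.56 and 1.38). *Cdk6* (0.420 and 0.585) and *Cdkn2b* (0.411 and 0.30) were under 1 in both libraries, and *Cdkn2a* had no count. The intervals of neighbours in this order overlapped only between *Cdk4* and *Ccnd1* and between *Cdk6* and *Cdkn2b*, both in CL basal. With counts halved, those of *Cdkn1b* and *Ccne1* and of *Ccne1* and *Ccnd2* in CL basal, and of *Cdk6* and *Cdkn2b* and of *Cdkn2b* and *Cdkn2a* in Ctrl basal, overlapped too. The length used is that of all annotated exons, 13989 bases for *Cdk6* and 1393 for *Cdkn2b*, so a gene with long exons that are seldom used has a level that is too low.

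**Figure D1:**
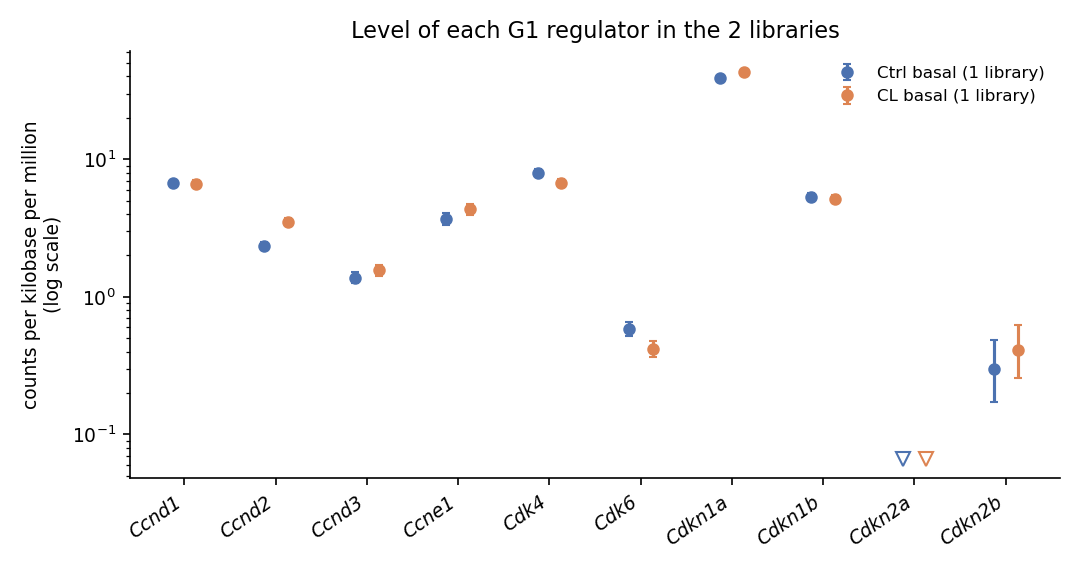
Level of the 10 G1 regulators in CPM per kilobase of exonic length (log axis) in Ctrl basal and CL basal, 1 library each, with 95% Poisson intervals of the counts as bars. Open triangles mark *Cdkn2a*, drawn at 3 counts because none was found. *Cdkn1a* lies above all others and the order is the same in both libraries.

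The first comparison asked whether these regulators differed in basal cells after CL treatment. Of the 10 genes, 9 had at least 20 counts over both libraries. Of these, 5 were higher and 4 lower in CL basal, with a median log2 fold change of 0.14 against -0.01 over all 17356 genes tested. The median was 0.05 among genes with at least 100 counts, where *Cdkn2b* (38 counts) drops out, and 0.08 with the trend on mean expression removed. *Ccnd2* was the single gene that reached 1.5-fold, in the higher direction. This is 1 of 9, where 6.33% of all tested genes were at least 1.5-fold higher, and 0 of 9 were at least 1.5-fold lower, where 11.7% of all genes were. Among genes with at least 1000 counts, which hold 5 of the 10, those shares were 1.04% higher and 2.21% lower. None of the 9 reached 2-fold, which 2.07% of all tested genes did upwards and 4.79% downwards. The counting interval lay wholly above 0 for 3 genes (*Ccnd2*, *Ccne1* and *Cdkn1a*) and wholly below 0 for 2 (*Cdk4* and *Cdk6*), where 25.2% and 25.4% of all tested genes did so. With counts halved, *Ccne1* was no longer among them.

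**Figure D2:**
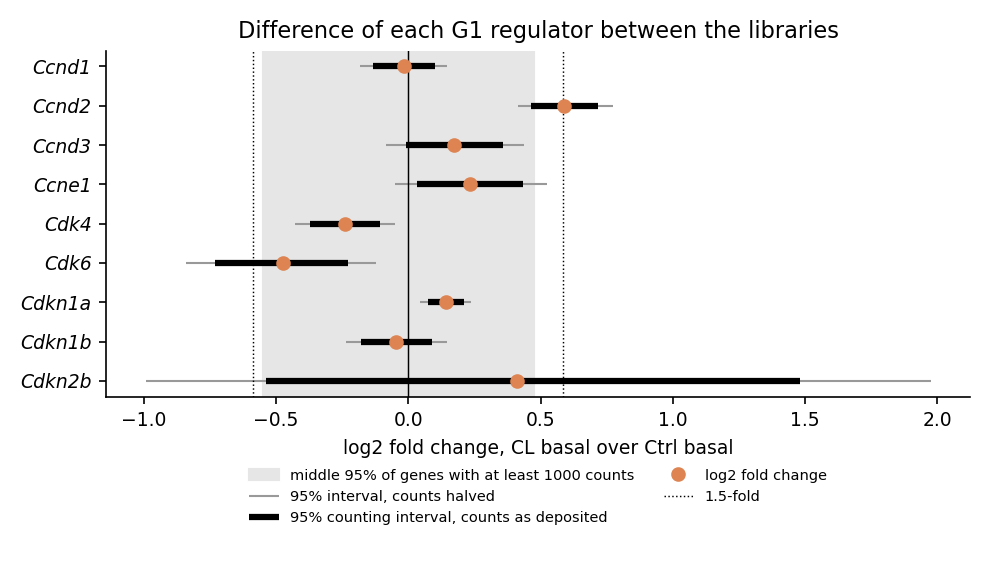
Log2 fold change of CL basal over Ctrl basal (x axis) for the 9 G1 regulators with at least 20 counts. Thick bars are 95% counting intervals, thin bars the intervals with counts halved, the grey band holds the middle 95% of genes with at least 1000 counts (-0.55 to 0.48), and dotted lines mark 1.5-fold. *Ccnd2* lies beyond the band and just past the dotted line, and the other 8 lie within the band.

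Of the D-type cyclins, *Ccnd2* was higher in CL basal, *Ccnd1* was near level and the interval of *Ccnd3* held 0. *Ccnd2* (chromosome 6, 127125162 to 127152193) was counted 1275 times in CL basal against 845 in Ctrl basal, or 33.2 and 22.0 CPM. On the log2 scale it was higher by 0.59 (95% exact interval 0.46 to 0.72), a 1.5-fold difference. Among genes with at least 1000 counts, 99% had a lower log2 fold change. The value lay close to the 1.5-fold line (0.585 on the log2 scale) and fell under it with scaling by total counts (0.55), among genes with at least 100 counts (0.579), and with the trend on mean expression (0.580) or on exonic length (0.572) removed. Of its 9409 exonic bases, 372 overlap *Gm43126* and 368 overlap *9330179D12Rik* on the other strand, which had at most 45 counts in a library.

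*Ccnd1* (chromosome 7, 144929931 to 144939925) was counted 1201 times in CL basal against 1211 in Ctrl basal, or 31.2 and 31.6 CPM. The log2 fold change of -0.02 had an interval of -0.13 to 0.10, so no difference was detectable at this depth. *Ccnd1* shares 1100 of its 4709 exonic bases with the opposite-strand gene *Oraov1*, which had 702 and 700 counts, and reads of the pair cannot be told apart if strand was not used in counting. *Ccnd3* (chromosome 17, 47505051 to 47599691) was counted 526 times against 465, with a log2 ratio of 0.17 (-0.01 to 0.36). It shares 361 of 8775 exonic bases with the more abundant *Bysl* on the other strand (3957 and 3201 counts). The pseudogene *Ccnd3-ps* was counted 3 times in CL basal against 0 in Ctrl basal.

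Shares within a library do not depend on how the libraries are scaled. *Ccnd2* made up 42.5% of the 3002 D-type cyclin reads in CL basal (95% exact interval 40.7 to 44.3%) and 33.5% of 2521 in Ctrl basal (31.7 to 35.4%). *Ccnd1* made up 40.0% (38.2 to 41.8%) and 48.0% (46.1 to 50%), and *Ccnd3* 17.5% and 18.4%. *Ccnd1* had the most reads of the 3 in Ctrl basal, while in CL basal the intervals of *Ccnd1* and *Ccnd2* overlapped. Corrected for exonic length, *Ccnd1* led in both libraries, with 56.6% of the D-type level in CL basal against 64.3% in Ctrl basal. The ratio of *Ccnd2* to *Ccnd1* reads was 1.06 in CL basal against 0.698 in Ctrl basal, a difference of 0.61 on the log2 scale (95% conditional exact interval 0.43 to 0.78, or 0.36 to 0.86 with counts halved). The ratio of *Ccnd2* to *Ccnd3* reads differed by 0.42 (0.19 to 0.64), while that of *Ccnd3* to *Ccnd1* differed by 0.19 with an interval that holds 0 (-0.03 to 0.41).

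**Figure D3:**
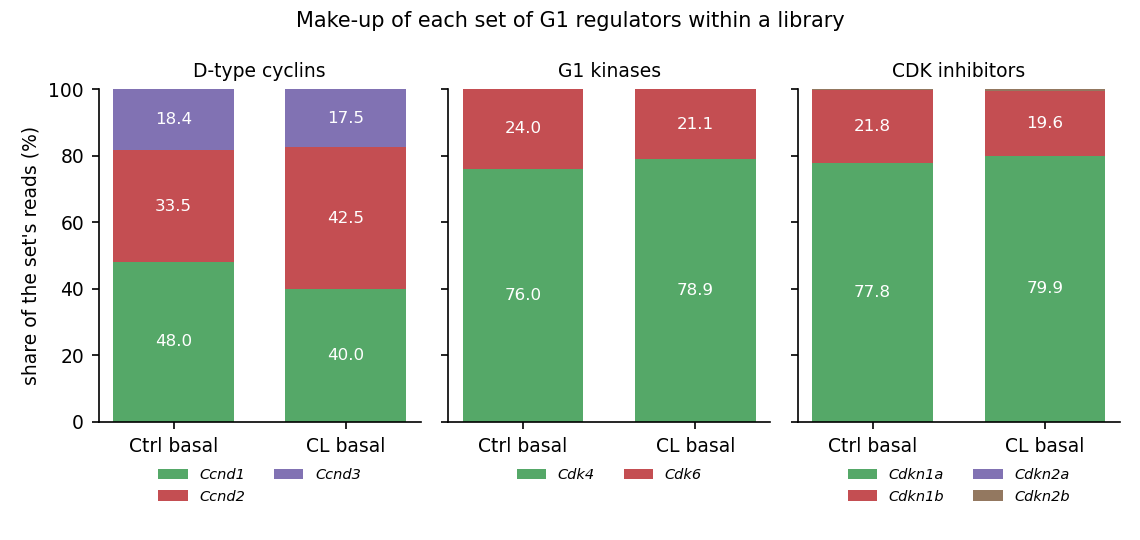
Share of each gene (y axis, percent) in the reads of its set, D-type cyclins, G1 kinases and CDK inhibitors, for Ctrl basal and CL basal, 1 library each. *Ccnd2* takes 42.5% of D-type cyclin reads in CL basal against 33.5% in Ctrl basal, and *Cdkn1a* takes most of the inhibitor reads in both.

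*Ccne1* (chromosome 7, 38097984 to 38107534), the cyclin that partners CDK2, was counted 443 times in CL basal against 376 in Ctrl basal. Its log2 fold change of 0.23 had an interval of 0.03 to 0.43, which became -0.05 to 0.52 with counts halved. For each D-type cyclin read there were 0.148 *Ccne1* reads in CL basal against 0.149 in Ctrl basal.

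Both G1 kinases were lower in CL basal, by less than 1.5-fold. *Cdk4* (chromosome 10, 127063534 to 127067920) was counted 846 times in CL basal against 996 in Ctrl basal, or 22.0 and 26.0 CPM, with a log2 fold change of -0.24 (-0.37 to -0.11). Among genes with at least 1000 counts, 12.9% had a lower value. *Cdk4* shares 604 of 3249 exonic bases with the opposite-strand gene *Tspan31*, which had 588 and 569 counts. *Cdk6* (chromosome 5, 3341485 to 3531008) was counted 226 times against 314, with a log2 ratio of -0.47 (-0.73 to -0.23), and 17% of genes with at least 100 and under 1000 counts had a lower one. *Cdk4* gave most of the kinase reads, 78.9% in CL basal (76.4 to 81.3%) and 76.0% in Ctrl basal (73.6 to 78.3%). The ratio of *Cdk6* to *Cdk4* reads differed by -0.24 on the log2 scale with an interval of -0.53 to 0.05, so a difference between the kinases was not detectable at this depth.

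Among the inhibitors, *Cdkn1a* (chromosome 17, 29090979 to 29100722), a target of p53 that encodes p21, was the most abundant, with 3676 counts in CL basal against 3324 in Ctrl basal (95.6 and 86.7 CPM). It was 1.10-fold higher in CL basal, a log2 fold change of 0.14 (0.07 to 0.21), and 67.6% of genes with at least 1000 counts had a lower value. *Cdkn1b* (chromosome 6, 134920401 to 134925513), which encodes p27, was counted 904 times against 930, with a log2 ratio of -0.04 (-0.18 to 0.09). The ratio of *Cdkn1a* to *Cdkn1b* reads was 4.07 in CL basal against 3.57 in Ctrl basal, a log2 difference of 0.19 (0.04 to 0.34). With counts halved, this interval reached from -0.03 to 0.40.

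*Cdkn2b* and *Cdkn2a* were the lowest of the 10. *Cdkn2b*, which encodes p15, was counted 22 times in CL basal against 16 in Ctrl basal, with a log2 ratio of 0.41 and an interval of -0.54 to 1.48, too wide to show a difference. *Cdkn2a* had 0 counts in both libraries. This count covers the exons of both its transcripts, so neither the p16 nor the p19Arf RNA was seen, and 3 counts would correspond to 0.0780 CPM in CL basal against 0.0782 in Ctrl basal. On the per-length scale this limit is 0.0666 and 0.0667, beside 0.411 and 0.30 for *Cdkn2b*. *Cdkn1a* gave 79.9% of inhibitor reads in CL basal (78.7 to 81.0%) and 77.8% in Ctrl basal (76.6 to 79.1%), and *Cdkn2b* gave 0.478% and 0.375%.

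Set against the D-type cyclins, inhibitor reads were fewer in CL basal. The 4 inhibitors held 4602 reads for 3002 of the D-type cyclins in CL basal, a ratio of 1.53, and 4270 for 2521 in Ctrl basal, a ratio of 1.69. The log2 difference was -0.14 (-0.24 to -0.05, or -0.28 to -0.01 with counts halved). Without *Ccnd2*, the ratios were 2.66 and 2.55, with a log2 difference of 0.06 (-0.05 to 0.18), an interval that holds 0.

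Other genes of the G1 step were taken from lists set by function. Of 14 further cyclins, kinases and inhibitors of G1 and the step into S phase, 0 reached 1.5-fold in either direction, where 6.33% of all tested genes were as much higher and 11.7% as much lower, and their median was 0.08. The difference farthest from 0 was that of *Ccna2*, the cyclin of S phase and G2, named after its values were seen, with 450 counts against 656 (-0.55, -0.72 to -0.37). *Cdk2*, the partner of cyclin E, was counted 616 times in CL basal against 522 in Ctrl basal (0.23, interval 0.06 to 0.41, or -0.01 to 0.48 with counts halved), and *Ccne2*, the other cyclin E, had 363 and 355 (0.03, -0.19 to 0.24). The third Cip/Kip inhibitor *Cdkn1c* had 547 and 499 counts (0.13, -0.05 to 0.31). The other INK4 genes were detected where *Cdkn2a* was not. *Cdkn2c* had 119 and 82 counts (0.52, 0.12 to 0.96, or -0.05 to 1.16 halved), and *Cdkn2d* had 104 and 110 (-0.08, -0.49 to 0.32).

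Downstream of the kinases, 1 of 20 genes of the RB, E2F and DREAM group was at least 1.5-fold higher and 2 were lower, near the 6.33% and 11.7% of all tested genes. *Rb1*, the retinoblastoma gene itself, was counted 492 times in CL basal against 543 in Ctrl basal (-0.15, -0.33 to 0.03). The activator *E2f1* was the higher one, with 78 and 51 counts (0.59, 0.08 to 1.15, or -0.17 to 1.36 halved). The repressor *E2f8* was lower, with 144 and 317 counts (-1.13, -1.44 to -0.85), and so was *Rbl1*, which encodes p107, with 52 and 85 (-0.69, -1.24 to -0.20, or -1.46 to 0.04 halved). The median of the group was -0.02.

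The next 3 lists are read against the same shares of all tested genes, 6.33% higher and 11.7% lower, and no count in them is above its background share. Among 18 regulators of cyclin, p21 and p27 turnover, *Dtl* was the 1 gene at least 1.5-fold higher, with 120 and 70 counts (0.76, 0.34 to 1.22), and 0 were lower. *Dtl* encodes the adaptor that directs p21 to a ubiquitin ligase during S phase. Of 27 transcription factors known to act on these genes, 1 was at least 1.5-fold lower, *Trp73* with 11 and 18 counts (-0.62, -1.94 to 0.45), named after its values were seen, and 0 were higher. Its interval holds 0. *Myc* had 8654 and 7246 counts (0.25, 0.21 to 0.30) and *Trp53* 2503 and 1959 (0.35, 0.26 to 0.44), both under 1.5-fold. Of 22 other p53 targets, 1 was higher, the stress gene *Ddit4* with 2661 and 1764 counts (0.59, 0.50 to 0.68). *Eda2r*, a receptor of the TNF family, was the 1 lower, with 72 and 118 counts (-0.70, -1.16 to -0.28). Their median was -0.04, beside 0.14 for *Cdkn1a*.

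The next comparison set the G1 regulators beside later steps of the cycle. Of 25 S phase targets of E2F, 4 were at least 1.5-fold lower and 0 higher, with a median of 0.01, where 11.7% of all tested genes were as much lower. The count is near that background and is no result about the list. The 4 were the replication factor subunit *Rfc4* (32 counts in CL basal against 100 in Ctrl basal), *Gmnn* (60 and 98), *Tyms* (144 and 224) and *Orc1* (28 and 60), the last named after its values were seen. Of 23 mitotic genes, 18 were at least 1.5-fold lower and 0 higher, with a median of -1.19. By the size of the difference these were led, among genes with at least 100 counts, by the kinetochore genes *Cenpe* (101 and 437 counts, -2.10) and *Cenpf* (64 and 275, -2.07) and by *Ube2c* (58 and 230, -1.95), a ubiquitin enzyme of mitotic exit. *Tpx2*, *Mki67* and *Ndc80* followed at -1.49, -1.48 and -1.44. Of the 23, 3 were above 0, by less than 1.5-fold and with intervals that hold 0. They were *Plk1* (51 and 34 counts, 0.55), *Aurka* (126 and 109, 0.20) and *Cdc20* (96 and 85, 0.17), named after their values were seen. The study picked several mitotic genes on these libraries, so their direction is no independent evidence. The 10 G1 regulators held 9119 counts in CL basal against 8477 in Ctrl basal, and the 23 mitotic genes held 3124 and 6916. The difference between the lists was not tested.

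**Figure D4:**
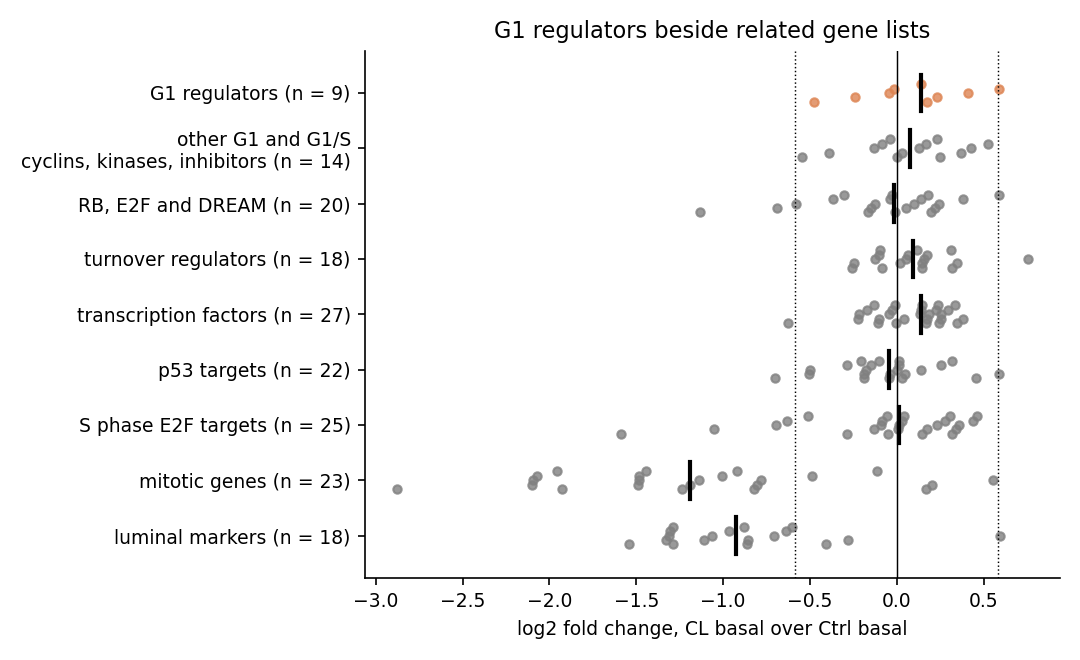
Log2 fold change of CL basal over Ctrl basal (x axis) for single genes (points) of the G1 regulators and of related lists, with the median of each list as a black bar and dotted lines at 1.5-fold. n is the number of genes with at least 20 counts. The G1 regulators lie around 0 (median 0.14), while mitotic genes (-1.19) and luminal markers (-0.92) lie mostly to the left.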

How the data were processed

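Total RNA of sorted mammary basal cells was sequenced on an Illumina HiSeq instrument, with 1 library per group. The authors deposited raw read counts per gene over annotated exons, not normalized, in the column layout of featureCounts, with exon coordinates and the exonic length of each gene. Builds GRCm38 and mm10 are named in the submitters' processing notes. The aligner, the annotation release and the strand setting are not given in the sources used here. A deposited ratio of the libraries and its log2 value were not used.

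Counts were scaled by TMM factors from edgeR 4.0.16 in R 4.3.3 (0.9869 for CL basal, 1.0133 for Ctrl basal). Comparisons across genes were limited to those with 20 or more summed counts. A prior count of 2, in proportion to library size, entered each log2 fold change. Intervals of 95% came from exact binomial, conditional exact or Poisson limits in scipy 1.17.1 with Python 3.11.15. They cover counting error only, so they compare 2 libraries and not the conditions. No p-value was computed, since a spread between replicates cannot be had from 1 library per group.

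Named genes are the 10 G1 regulators, 9 further genes fixed by name, and from each related list up to 6 genes with at least 100 counts and a 1.5-fold difference. The members, lists and thresholds were chosen with earlier results of these data known. The symbols Ccnd1bp1 and Cdk3 of the lists were not found in the table. The alternatives were other scalings (total counts, DESeq2 1.42.0 size factors, upper quartile), prior counts of 0.5 and 5, no filter or at least 100 counts, thinning, halved counts, removal of a smooth trend on mean expression or exonic length (statsmodels 0.14.6), and a 2-fold threshold.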

Additional observations from a re-analysis of the deposited data

How the results depend on the processing

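The count of G1 regulators at least 1.5-fold higher, 1 with *Ccnd2*, depended on the processing because *Ccnd2* lies next to the threshold. It was 0 with scaling by total counts (*Ccnd2* at 0.55), with at least 100 counts (0.579), without the trend on mean expression (0.580), without the trend on exonic length (0.572), and with a threshold of 2-fold. Under all 11 alternatives of scaling, prior count, filter, depth and trend, *Ccnd2* ran from 0.55 to 0.60. The count at least 1.5-fold lower was 0 under all 12 alternatives. All 98 log2 fold changes of the G1 regulators recomputed under the alternatives stayed within their main 95% intervals. The median of the G1 regulators ran from 0.05 to 0.16 and that of mitotic genes from -1.23 to -1.06. Near 0, the median of the RB, E2F and DREAM genes ran from -0.05 to 0.04, that of S phase targets from -0.02 to 0.11, and *Ccnd1* from -0.05 to 0.003, so their signs carry no information. *Cdkn2b* has no value with at least 100 counts. No paired analysis was possible because a group is a single library with no partner. Depth limits *Cdkn2b* (38 counts over both libraries) and *Cdkn2a* (0 counts), for which no difference can be shown.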

Other observations

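A ratio chosen after its values were seen compares the D-type cyclins with the kinases they activate. For each read of *Cdk4* or *Cdk6* there were 2.80 D-type cyclin reads in CL basal (3002 to 1072 reads) and 1.92 in Ctrl basal (2521 to 1310 reads). The difference was 0.54 on the log2 scale, with a 95% conditional exact interval of 0.40 to 0.68, or 0.34 to 0.74 with counts halved. *Ccnd2* was higher and both kinases were lower in CL basal, and 1 library per group cannot show whether this exceeds the spread between mice.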
